A study of Mus musculus with 2 samples.

Results

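The interleukin-6 family of cytokines and receptors was followed in primary mouse osteoblasts exposed to factors of prostate cancer cells. The members were the cytokine genes Il6, Il11, Lif, Clcf1, Ctf1 and Osm and the receptor chain genes Il6st, Il6ra, Lifr and Osmr. They were taken by symbol from the annotation of the array: 10 genes of the 18193 that had a probe set, with 21 probe sets of 45037. A probe set is a group of short probes that reads one stretch of transcript, and its signal is an intensity in arbitrary units. All 10 symbols carried the same identifier in a current table of mouse genes.

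Differentiation of the osteoblasts had run for 10 days in alpha-MEM (10% fetal calf serum), with beta-glycerophosphate at 10 mM and ascorbic acid at 50 µg/ml added. After a night without serum they received PC-3 medium or MDA-PCa2b medium, each conditioned by the human prostate cancer line of that name, for 6 hours. Both lines were derived from bone metastases, PC-3 being known for bone-destroying and MDA-PCa2b for bone-forming lesions. The labels give no strain, sex, age or number of mice. RNA of each culture was read on 1 array, so the comparison is between 2 arrays, without replicates, SD or test between the media. Untreated osteoblasts were not analysed here, so "higher" and "lower" say how the PC-3 medium array stood to the MDA-PCa2b medium array.

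Cytokines of this family signal through a shared receptor subunit, gp130, the product of Il6st. Interleukin-6 and interleukin-11 first bind a ligand-specific chain, such as the interleukin-6 receptor encoded by Il6ra, and then pair gp130 with itself. LIF, cardiotrophin-1 (Ctf1) and cardiotrophin-like cytokine (Clcf1) join gp130 to the LIF receptor (Lifr), while mouse oncostatin M (Osm) mainly joins it to its own receptor chain, Osmr. The paired chains activate JAK kinases and STAT3. In bone, osteoblasts and osteocytes express these receptors, and the cytokines are known to act on bone formation and on the release of RANKL, the inducer of osteoclasts.

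Transcripts of the shared signal chain, of the oncostatin M receptor chain and of the cytokines IL-6 and LIF gave higher signals with PC-3 medium, whereas the brightest Lifr probe set was almost level. A gene counted as measured where its brightest probe set lay above the floor, the 50th percentile of the array (57.7 with PC-3 medium and 56.7 with MDA-PCa2b medium). Of the 10 members 7 were measured, 2 lay above the floor on 1 array alone and 1 on neither. A higher signal by 2-fold or more was given by 4 of the 7 measured members, and a lower one by 0. Over all 10649 measured genes these shares were 1.9% (higher) and 1.68% (lower). The measured members had a median log2 ratio of 1.07, beside -0.04 over all measured genes. At 1.5-fold the counts were again 4 higher and 0 lower, beside 5.18% and 6.23% of all measured genes. At 3-fold only Il6 was counted, as higher, beside 0.742% (higher) and 0.338% (lower). The members were chosen with results of these arrays known, so the count describes them and is no test.

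**Figure D1:**
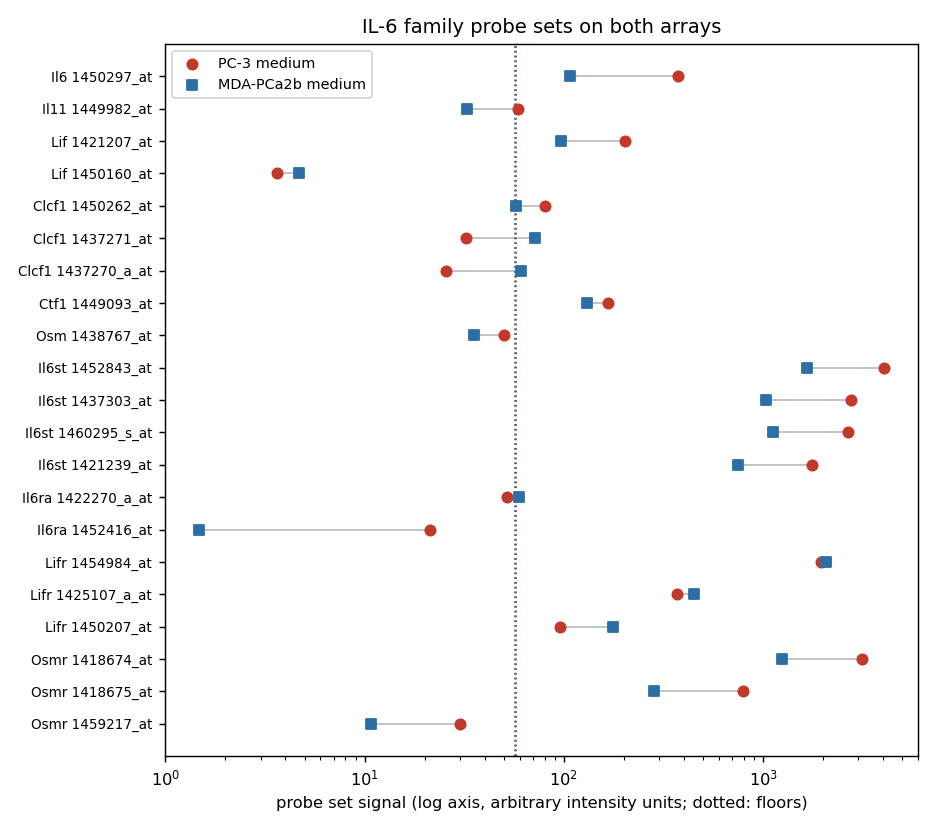
Signal of each of the 21 probe sets of the family (log axis) with PC-3 medium (red circles) and MDA-PCa2b medium (blue squares); dotted lines are the floors at 57.7 and 56.7. All 4 Il6st probe sets and both bright Osmr probe sets lie to the right with PC-3 medium, while the Il11, Osm and Il6ra signals lie around or below the floors.

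Il6, a main driver of acute-phase responses and a cytokine that osteoblasts release on inflammatory stimulation, had the highest ratio among the members. Its only probe set (1450297_at, Entrez 16193) gave a signal of 372 with PC-3 medium and 107 with MDA-PCa2b medium. The log2 ratio was 1.80, a 3.48-fold higher signal, and 99.5% of measured genes had a lower ratio. As a yardstick, probe sets that read 1 gene differed in log2 ratio with an SD of 0.24 (4924 genes), which covers scatter within these arrays and not between cultures. When the floor was raised to the 75th percentile, the MDA-PCa2b signal fell below it, and the ratio became a bound of 0.32.

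Lif, the gene of leukaemia inhibitory factor, was next among the cytokine genes. Its probe set 1421207_at (Entrez 16878) gave 204 with PC-3 medium and 96.9 with MDA-PCa2b medium, 2.10-fold higher (log2 ratio 1.07). A second Lif probe set, 1450160_at, gave 3.63 with PC-3 medium and 4.66 with MDA-PCa2b medium, below the floor on both arrays, so a single probe set carries the Lif result. Lif was the member just inside the 2-fold threshold, and with log2(signal + 16) in place of a floor its log2 ratio was 0.96, just outside it.

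The bases before the start of both cytokine genes are printed because Il6 and Lif were the cytokine transcripts at least 2-fold higher. They come from a table of RefSeq promoter windows (GRCm38.p6), in which 8 of the 10 members were matched, and show the 250 bases upstream of the annotated start, 5′ to 3′ along the gene. The Il6 window is chr5:30012864-30013113 on the plus strand and the Lif window chr11:4257318-4257567 on the plus strand. Capitals mark matches to 5 motifs searched on both strands: AP-1 (TGANTCA), the CRE half-site (TGACG), STAT (TTCNNNGAA), NF-kB (GGG and TTCC with any 3 bases between them) and C/EBP (TTNCNNAA).
Il6: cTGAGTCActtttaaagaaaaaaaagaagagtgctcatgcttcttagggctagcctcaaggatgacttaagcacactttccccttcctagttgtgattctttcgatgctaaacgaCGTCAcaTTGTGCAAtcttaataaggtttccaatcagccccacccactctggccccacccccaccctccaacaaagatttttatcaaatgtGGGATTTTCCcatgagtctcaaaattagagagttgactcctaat
Lif: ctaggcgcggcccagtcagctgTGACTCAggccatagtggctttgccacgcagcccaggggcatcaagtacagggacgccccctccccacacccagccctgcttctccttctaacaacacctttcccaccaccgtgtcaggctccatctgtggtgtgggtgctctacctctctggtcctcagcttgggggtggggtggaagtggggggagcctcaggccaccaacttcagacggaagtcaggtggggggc
In the Il6 window the matches were an AP-1 match whose first base lies at -249 from the start, a CRE half-site on the minus strand at -135, a C/EBP match on the minus strand at -128 and an NF-kB match at -44; none of them overlapped. The Lif window held a single AP-1 match, at -228. Of all 32851 promoter windows of this length 6.75% held the AP-1 letters, 17.8% the CRE half-site, 7.02% the STAT letters, 4.65% the NF-kB letters and 36.8% the C/EBP letters. Such matches describe the letters and do not show that a factor binds there.

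The other cytokine genes were at low signals. Ctf1, the cardiotrophin-1 gene, gave 167 with PC-3 medium and 131 with MDA-PCa2b medium by its only probe set (1449093_at), a log2 ratio of 0.36. For Clcf1, whose product forms a secreted complex with a partner chain and acts through the LIF receptor, the brightest probe set (1450262_at) gave 80.5 with PC-3 medium and 57.8 with MDA-PCa2b medium, a log2 ratio of 0.48. It was the member next below the threshold, at 1.39-fold. The other Clcf1 probe sets went the opposite way: 1437271_at gave 32.2 with PC-3 medium and 71.7 with MDA-PCa2b medium, at least 1.24-fold lower, and 1437270_a_at gave 25.7 with PC-3 medium and 60.7 with MDA-PCa2b medium, at least 1.05-fold lower. The direction of Clcf1 is therefore not settled by these arrays. Il11, a cytokine gene with known roles in osteoblast differentiation, gave 59.1 with PC-3 medium and 32.7 with MDA-PCa2b medium, a bound of at least 1.04-fold higher, since the first value lay just above the floor. Osm, by 1438767_at, gave 50.04 with PC-3 medium and 35.2 with MDA-PCa2b medium, below the floor on both arrays, and no ratio is given for it. Lif and Osm lie side by side on chromosome 11, with 0 annotated genes between them.

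**Figure D2:**
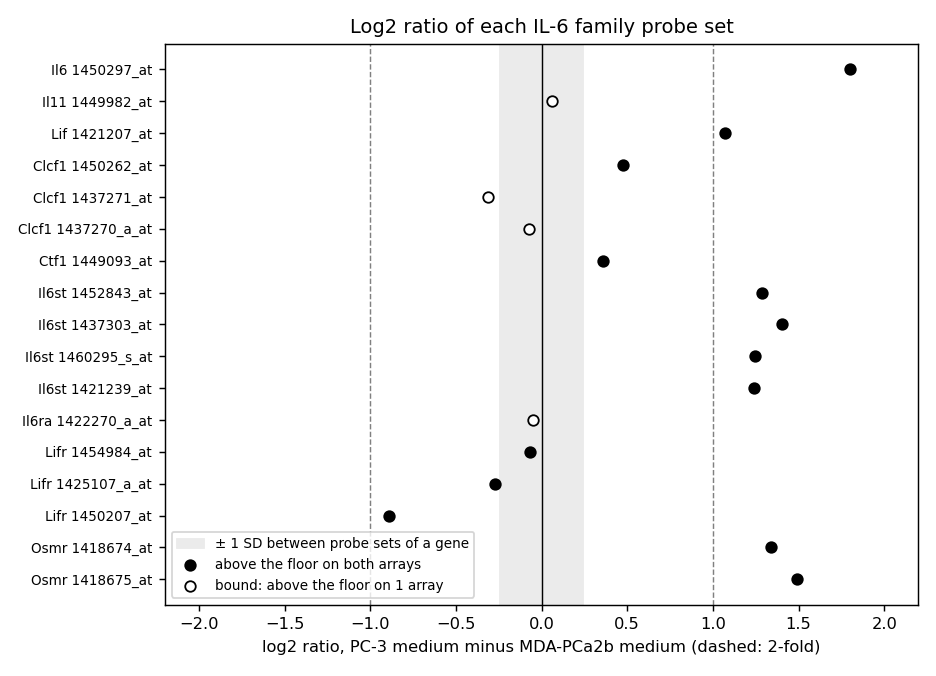
Log2 ratio, PC-3 medium minus MDA-PCa2b medium, of the 17 member probe sets above the floor on at least 1 array; filled points are measured on both arrays, open points are bounds, the grey band is ± 0.24 and dashed lines mark 2-fold. The Il6, Lif, Il6st and Osmr points lie beyond 2-fold higher, the 3 Lifr points lie between -0.89 and -0.07, and the Clcf1 points lie on both sides of 0.

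Among the receptor chains Il6st, the gp130 gene, was read by 4 probe sets, which differed little in ratio. Its brightest probe set (1452843_at, Entrez 16195) gave a signal of 4053 with PC-3 medium and 1663 with MDA-PCa2b medium, 2.44-fold higher. The probe sets 1437303_at, 1460295_s_at and 1421239_at gave 2748, 2669 and 1759 with PC-3 medium, against 1040, 1127 and 745 with MDA-PCa2b medium. All 4 probe sets were thus more than 2-fold higher, from 2.36-fold to 2.64-fold, with a mean log2 ratio of 1.29 ± 0.08 (SD over 4 probe sets of the same arrays, which are no replicates). The probe set ending in _s_at can match several transcripts. It is not the brightest, so leaving it out could not change the Il6st value.

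Osmr, the chain that pairs with gp130 to form the oncostatin M receptor, showed a ratio close to that of Il6st. Its brightest probe set (1418674_at, Entrez 18414) gave 3137 with PC-3 medium and 1238 with MDA-PCa2b medium, 2.53-fold higher. A second probe set (1418675_at) gave 793 with PC-3 medium and 282 with MDA-PCa2b medium, 2.81-fold higher, and the dimmest (1459217_at) stayed below both floors. The log2 ratios of the measured pair were 1.34 and 1.49. The difference between the log2 ratios of Osmr and Il6st, 0.06, is smaller than the probe set SD of 0.24. The signal of Il6st and Osmr lay far above the floor on both arrays, so the other floors could not move their ratios. With a pseudocount, another scaling or averaging of probe sets the Il6st log2 ratio lay between 1.28 and 1.32. That of Osmr lay between 1.33 and 1.42.

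Lifr, the chain shared by LIF, cardiotrophin-1 and Clcf1, did not follow them. Its brightest probe set (1454984_at, Entrez 16880) gave 1963 with PC-3 medium and 2059 with MDA-PCa2b medium, a log2 ratio of -0.07. The dimmer probe sets were lower, 1425107_a_at giving 371 with PC-3 medium and 448 with MDA-PCa2b medium (log2 ratio -0.27) and 1450207_at giving 95.3 with PC-3 medium and 177 with MDA-PCa2b medium (-0.89, 1.85-fold lower). The 3 probe sets agree in sign but scatter with an SD of 0.43, so the size for Lifr depends on the probe set: the mean was -0.41. On the log2 scale the Il6st ratio exceeded that of Lifr by 1.35 and the Osmr ratio by 1.41, both larger than the probe set SD of 0.24, without replicate cultures to test them. Lifr and Osmr lie near each other on chromosome 15, with 3 annotated genes between their starts, 0 of them protein-coding.

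Il6ra, the gene of the chain that binds interleukin-6 itself, was at the floor. The brighter probe set (1422270_a_at, Entrez 16194) gave 52.0 with PC-3 medium and 59.8 with MDA-PCa2b medium, a bound of at least 1.04-fold lower. The second probe set (1452416_at) gave 21.3 with PC-3 medium and 1.47 with MDA-PCa2b medium, below both floors, where signals of this array type carry no reliable ratio. Whether Il6ra differed between the media cannot be read from these values.

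The upstream windows of Il6st and Osmr are printed for comparison with those of the cytokine genes, since both transcripts were higher together with Il6 and Lif. The Il6st window is chr13:112463820-112464069 on the plus strand and the Osmr window chr15:6874314-6874563 on the minus strand (RefSeq, GRCm38.p6), with the same motifs searched.
Il6st: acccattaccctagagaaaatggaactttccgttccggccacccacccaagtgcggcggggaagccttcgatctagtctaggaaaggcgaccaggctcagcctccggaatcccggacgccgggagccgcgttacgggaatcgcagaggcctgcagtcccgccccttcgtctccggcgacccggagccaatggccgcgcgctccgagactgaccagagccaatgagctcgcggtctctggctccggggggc
Osmr: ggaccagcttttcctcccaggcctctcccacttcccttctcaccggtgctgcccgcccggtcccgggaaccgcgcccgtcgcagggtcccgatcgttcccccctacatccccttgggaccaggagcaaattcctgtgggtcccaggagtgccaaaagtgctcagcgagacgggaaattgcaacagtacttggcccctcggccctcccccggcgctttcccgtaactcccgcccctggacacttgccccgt
None of the 5 motifs was found in either window, which says only that these letters are not in these 250 bases. Of the 8 members whose windows were searched, 3 held the AP-1 letters (Il6, Il11 and Lif). The CRE half-site and the C/EBP letters were each held by 2, Il6 and Il6ra in both cases. The NF-kB letters were held by 1 (Il6) and the STAT letters by 0. These members had 10 windows, of which 3 held AP-1, 2 the CRE half-site, 2 C/EBP, 1 NF-kB and 0 STAT. Over all windows the shares in that order were 6.75%, 17.8%, 36.8%, 4.65% and 7.02%.

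**Figure D3:**
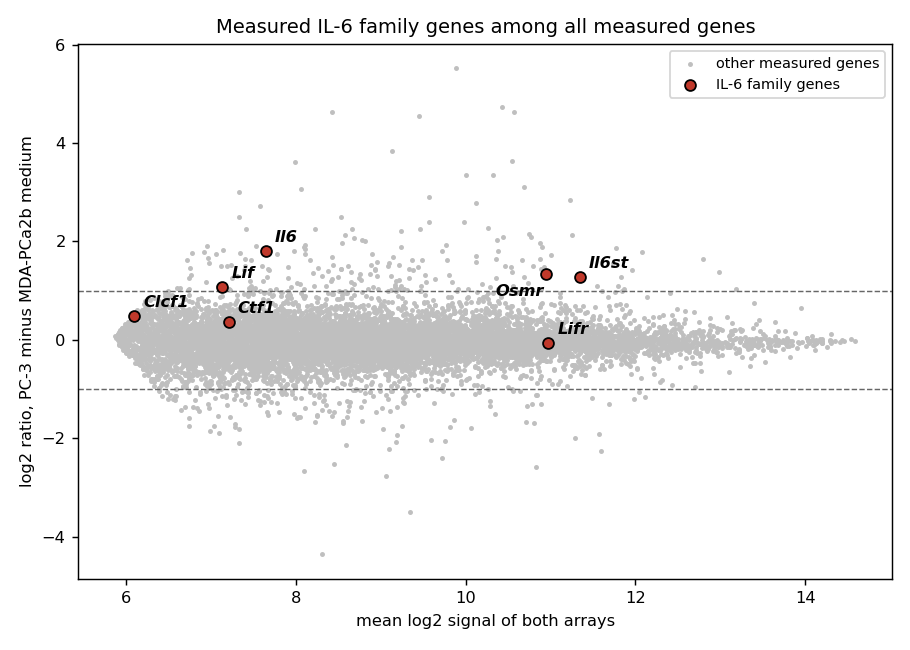
Log2 ratio (PC-3 medium minus MDA-PCa2b medium) of the 10649 measured genes against their mean log2 signal, with the 7 measured members in red and dashed lines at 2-fold. Il6, Lif, Osmr and Il6st lie above the upper line, Osmr and Il6st among bright genes where the cloud is narrow, and Lifr lies close to 0.

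The genes with signals most like Il6 on both arrays, by Euclidean distance in log2 signal, were Col5a3 (distance 0.07), Tcim (0.18) and Gbp3 (0.19). Those most like Lifr, the measured member with the lowest ratio, were Aga, Uqcr11 and Ykt6, at distances of 0.00443, 0.00818 and 0.0108. With 2 arrays the likeness rests on 2 values per gene.

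The label of the cells was checked against markers. All 6 osteoblast markers with a named probe set were measured: Alpl, Ibsp, Sp7, Col1a1, Dmp1 and Phex, with summed signals of 41415 with PC-3 medium and 45885 with MDA-PCa2b medium. Of these the osteocyte-type matrix gene Dmp1 was lower (426 with PC-3 medium and 1765 with MDA-PCa2b medium) and the others differed less than 2-fold. Macrophage and osteoclast markers were also present: 9 of 10 were measured, with summed signals of 22740 with PC-3 medium and 22458 with MDA-PCa2b medium, and 0 differed 2-fold. The macrophage marker Adgre1 gave 1405 with PC-3 medium and 1346 with MDA-PCa2b medium. Among the osteoclast markers, Ctsk gave 7336 with PC-3 medium and 7420 with MDA-PCa2b medium. Acp5 gave 306 with PC-3 medium and 225 with MDA-PCa2b medium, and only Calcr lay below both floors. The median log2 ratio of the macrophage and osteoclast markers was 0.06. Adipocyte markers were measured for 2 of 4 genes, Fabp4 (522 with PC-3 medium and 265 with MDA-PCa2b medium) and Adipoq (139 with PC-3 medium and 101 with MDA-PCa2b medium), and all 4 summed to 668 with PC-3 medium and 371 with MDA-PCa2b medium; their part in the results was not tested. None of the 6 endothelial markers and none of the 6 lymphocyte markers was measured; the lymphocyte gene Cd8a passed the floor with MDA-PCa2b medium alone (72.3, against 32.3 with PC-3 medium). Which cells in the culture carry the Il6, Lif, Il6st or Osmr transcripts cannot be told from RNA of the whole culture, nor can a change in cell number be told apart from a change in RNA per cell.

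Genes that carry the signal inside the cell were examined as a list. None of 11 measured kinase, STAT and adaptor genes differed 2-fold (0 higher and 0 lower, beside 1.9% and 1.68% of all measured genes). Of the 11, 9 had a log2 ratio above 0, and the median log2 ratio was 0.29. The largest was Stat3, the main transcription factor of the pathway, with 2121 with PC-3 medium and 1262 with MDA-PCa2b medium (log2 ratio 0.75), but its other measured probe sets gave -0.12 and 0.27. Jak1, a main kinase of gp130 signalling, gave 3140 with PC-3 medium and 2055 with MDA-PCa2b medium (log2 ratio 0.61), with 0.50 and 0.63 by its other probe sets. Among other chains and ligands linked to gp130, 2 of 5 genes were measured. These were Ebi3, a subunit of interleukin-27 (log2 ratio -0.13), and Cntfr, the ciliary neurotrophic factor receptor gene (-0.12). The Cntfr signals, 62.1 with PC-3 medium and 67.6 with MDA-PCa2b medium, lay just above the floors. Il27ra passed the floor only with PC-3 medium (62.0, against 8.82 with MDA-PCa2b medium), a bound of at least 1.09-fold higher.

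Inhibitor genes of the pathway were split. Socs3, the STAT3-induced inhibitor that binds gp130, gave 3613 with PC-3 medium and 818 with MDA-PCa2b medium, 4.42-fold higher; this probe set can match several transcripts, but the remaining pair of probe sets also gave high log2 ratios, 1.81 and 2.06. The phosphatase gene Ptpn2 was 2.15-fold higher (4377 with PC-3 medium and 2038 with MDA-PCa2b medium), while its remaining probe sets gave 0.32 and 1.10 on the log2 scale. Socs2, an inhibitor best known from growth hormone signalling, was 2.16-fold lower (363 with PC-3 medium and 782 with MDA-PCa2b medium), with -0.81 to 0.14 by its other measured probe sets. These made 2 higher and 1 lower of 10 measured inhibitor genes, beside 1.9% and 1.68% of all measured genes, and the median of the list was 0.16 on the log2 scale. With probe sets averaged the counts were 1 and 0.

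Known STAT3 target genes were more often higher: 10 of 20 measured ones were 2-fold or more higher and 1 was lower by as much, beside 1.9% and 1.68% of all measured genes. Their median log2 ratio was 1.007. Hp, the haptoglobin gene of the acute phase, gave 487 with PC-3 medium and 74.3 with MDA-PCa2b medium, 6.56-fold higher. Bcl3, a nuclear partner of NF-kB subunits, gave 845 with PC-3 medium and 202 with MDA-PCa2b medium, 4.19-fold higher. The acute-phase gene Saa3 and the metalloreductase gene Steap4 were 24.8-fold and 10.1-fold higher. A further 2, the protease inhibitor gene Serpina3n and the siderophore-binding gene Lcn2, passed the floor only with PC-3 medium and were at least 12.9-fold and 8.44-fold higher. The member at least 2-fold lower was the growth regulator gene Myc, with 390 with PC-3 medium and 802 with MDA-PCa2b medium. Several of these genes are also known targets of NF-kB, and the list was chosen with results of these arrays known.

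**Figure D4:**
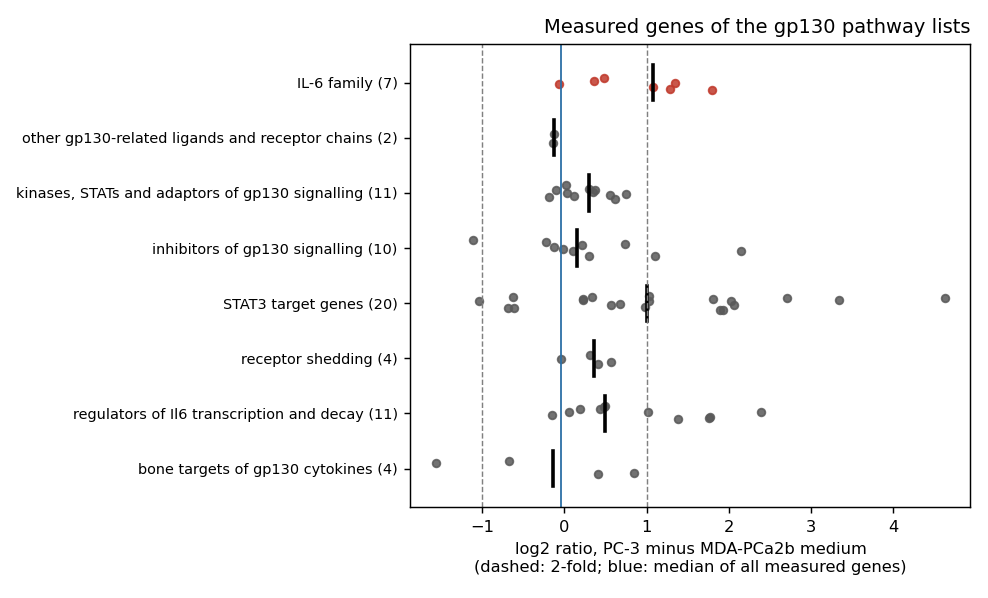
Log2 ratio (PC-3 medium minus MDA-PCa2b medium) of the measured genes of the family and of 7 pathway lists, with the number of genes in brackets, the median of each list as a black bar, dashed lines at 2-fold and the median of all measured genes, -0.04, in blue. The median of the family lies at 1.07, that of STAT3 target genes at 1.007, and those of the other lists between -0.14 and 0.50.

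Genes known to set the level of Il6 transcripts were also examined. Of 11 measured regulators of Il6 transcription and decay, 5 were higher by 2-fold or more and 0 lower, beside 1.9% and 1.68% of all measured genes, with a median log2 ratio of 0.50. Nfkbiz, an NF-kB cofactor that mouse macrophages need to induce Il6, was 5.24-fold higher (2313 with PC-3 medium and 441 with MDA-PCa2b medium). Its other measured probe sets gave lower log2 ratios, 1.23 and 1.96, against 2.39 by the brightest. The NF-kB inhibitor gene Nfkbia was 3.42-fold higher, and the AP-1 subunit genes Fosl1 and Jun were 3.39-fold and 2.60-fold higher; a second Fosl1 probe set gave only a bound of 0.26 on the log2 scale. Arid5a, whose product stabilises Il6 mRNA, was also counted (257 with PC-3 medium and 126 with MDA-PCa2b medium, 2.03-fold higher). The RNase gene Zc3h12a, whose product degrades Il6 mRNA, passed the floor only with PC-3 medium (600, against 40.3 with MDA-PCa2b medium). This gave a bound of 3.40 on the log2 scale, and its other probe set a bound of 0.83. The count was 3 when the floor was raised to the 75th percentile.

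Of the genes linked to the shedding of membrane-bound receptors and ligands, 4 were measured. Of these 0 differed 2-fold, beside 1.9% (higher) and 1.68% (lower) of all measured genes. The largest log2 ratios were 0.57 for the protease inhibitor gene Timp3 and 0.41 for Adam17, the protease that releases soluble interleukin-6 receptor; Rhbdf2, a gene needed for Adam17 maturation, passed the floor only with PC-3 medium (136, against 16.7 with MDA-PCa2b medium, and so at least 2.399-fold higher). Among bone genes that gp130 cytokines are known to act on, 4 were measured. Tnfrsf11b, which encodes osteoprotegerin, the decoy receptor that traps RANKL, was 2.96-fold lower (154 with PC-3 medium and 456 with MDA-PCa2b medium). Its other measured probe set gave a log2 ratio of -1.03. Tnfrsf11b was the only one of the 4 past 2-fold, beside 1.9% (higher) and 1.68% (lower) of all measured genes. Tnfsf11, the RANKL gene, gave a log2 ratio of 0.85 by its brightest probe set and 1.07 by the other. Ptgs2 gave 0.41 by its brightest probe set and -0.005 by the other, and Sp7 gave -0.68. The median log2 ratio of these bone genes was -0.14. Sost, the gene of the osteocyte Wnt inhibitor sclerostin, lay below the floor on both arrays.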

How the data were processed

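Total RNA of primary mouse osteoblasts was hybridised to 2 Affymetrix arrays, 1 per conditioned medium; per the labels, biotin-labelled cRNA was made from 5 µg of RNA. The source description named the medium of each culture; the PC-3 title also begins like the other line's name. Each deposited value is the intensity of a probe set on a linear scale. Per the submitters' processing notes, the authors used MAS5 and GCOS 1.4. Scaling target, detection calls and background settings are not given in the sources used here. The mean signal without the lowest and highest 2% was 298.7 on both arrays, so they had been scaled to a common mean. Of 45101 probe sets 64 controls were left out.

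The array annotation gave 34958 probe sets a single gene and 932 several, and the several-gene entries named nothing. Each array had its 50th percentile as a floor, to which lower signals were raised before log2. A log2 ratio is PC-3 medium minus MDA-PCa2b medium. Each gene was represented by its brightest probe set over both arrays. A ratio with 1 array at the floor was given as a bound, and none was given where both were. With 1 array per group there was no test, and the number of arrays limits the precision. Members, lists and thresholds were chosen with earlier results of these data known. From each list up to 4 measured genes past 2-fold were named by size, or 2 where there was none. Genes above the floor on 1 array, Arid5a, Tnfsf11, Ptgs2, Sp7, Sost, Adgre1, Ctsk, Acp5, Calcr and Cd8a were chosen after their values were seen. List genes without a single-gene probe set were not analysed here. Alternatives were other floors (25th or 75th percentile), log2(signal + 16), quantile normalisation, centring on the median, averaging probe sets, single-transcript probe sets alone, and thresholds of 1.5-fold and 3-fold. Scripts ran in Python 3.11.15 with numpy 2.4.6 and pandas 2.3.3 and were tested on simulated data.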

Additional observations from a re-analysis of the deposited data

How the results depend on the processing

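Of the 10 members, 4 measured ones were at least 2-fold different, all higher, and the count was also 4 with the floor at the 25th percentile, with quantile normalisation, with the median log2 ratio set to 0, with probe sets averaged, without probe sets that can match several transcripts and at 1.5-fold. It was 3 with log2(signal + 16), 2 with the floor at the 75th percentile, where 3 members were still measured, and 1 at 3-fold. Among all measured genes, 202 of 10649 (1.9%) were at least 2-fold higher as reported. The lower floor (25th percentile) gave 426 of 13620 (3.13%) and the higher floor (75th) 90 of 6460 (1.39%). Using log2(signal + 16) gave 527 of 18193 (2.90%). Genes at least 2-fold lower numbered 179, 382, 56 and 436 in that order. The measured members also changed in number, to 7, 10, 3 and 10 in the same order. Il11 had log2 ratios of 0.86 with the lower floor and 0.63 with log2(signal + 16), where both signals counted, and Osm 0.51 and 0.37. No ratio of a member at least 2-fold different changed sign under these alternatives, but most of them could not have reversed one. A changed floor or the added 16 can alter the size of a ratio, not its sign. Il6 and Lif had 1 measured probe set each, so averaging or a restriction to single-transcript sets could not move their values. The lower floor left the ratios of all 4 members as reported, since their signals already lay above it. These unchanged values are therefore no separate support. Of 98 list counts recomputed after the data were seen, many were 0 both as reported and under the alternative, which counted as unchanged. With these included, 89 stayed within 1.5 times. The others were 1 higher among other gp130-linked genes with log2(signal + 16) (0 as reported), 1 higher and 0 lower among inhibitors with probe sets averaged, 1 higher among shedding genes with the lower floor and with log2(signal + 16), 3 higher among Il6 regulators with the higher floor, and 2, 0 and 2 lower among bone genes with the lower floor, the higher floor and log2(signal + 16). No paired analysis was possible because each medium has 1 array. Low signals limit Il11, Osm, Il6ra and Clcf1, for which the arrays settle no direction.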
